A study of Mus musculus with 16 samples.

Results

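Il15, Il15ra, Il2rb and Il2rg encode interleukin-15 (IL-15) and the 3 chains of its receptor. Members were the genes with a probe set that carries exactly 1 of these 4 symbols. Il15, Il15ra and Il2rb met that rule with 1 probe set each, which makes 3 of 19752 genes measured on the array, and Il2rg was not analysed here.

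IL-15 keeps natural killer (NK) cells and memory T cells alive. A cell that makes IL-15 usually holds it at its surface on the alpha chain, encoded by Il15ra, and presents it to a neighbouring cell that carries the beta chain, encoded by Il2rb and shared with the IL-2 receptor, and the common gamma chain, encoded by Il2rg. The beta and gamma chains then signal through JAK1, JAK3 and STAT5. Type I interferon is a known inducer of Il15 and Il15ra in macrophages and dendritic cells, by way of interferon regulatory factors.

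RNA of cells sorted from male mice was measured on 16 arrays (Affymetrix Mouse Gene 1.0 ST), which form 8 groups with 2 arrays in each, and the title names the dependency of interferon-stimulated gene expression on Ifnar1 and Tyk2. Knockout macrophages came from the peritoneal cavity of 6-week-old B6.129S2-Ifnar1tm1Agt/Mmjax mice, in which the IFNAR1 chain needed to sense type I interferon is missing, and were titled without interferon α (IFNα) or with IFNα at 2 h. The preparation text of every knockout array states IFNα at 10000 units. B10.Q/J mice, 7 weeks old and of a line that carries a natural mutation of Tyk2, the kinase bound to IFNAR1, gave peritoneal macrophages and splenic CD4+ T cells. Each B10.Q/J cell type was taken after vehicle, 2 h after IFNα and 5 h after IFNα, given under the skin at 10000 units. Macrophages were gated on ICAM2 and the macrophage antigen encoded by Adgre1, and T cells as TCRB+ CD4+ CD8-. Both mouse lines thus carry an altered interferon receptor pathway, and no array here came from a mouse with intact Ifnar1 and Tyk2. In each cell type, vehicle array 1 was taken at 2 h and vehicle array 2 at 5 h. Whether arrays of the same group represent different animals is not stated, so p-values measure only the spread between these samples, which may be technical. Age, line and genotype changed together between the knockout and B10.Q/J groups and cannot be told apart.

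Some labels disagree with each other. The knockout pair titled without IFNα carries a preparation text that states the 2 h injection. The titles were followed, and if that text is right both knockout groups were treated. A B cell code opens the title of the first T cell vehicle array, while its other labels say CD4+ T cell. Titles of 5 of the 6 B10.Q/J macrophage arrays carry a spleen code, against a source label of peritoneal cavity. The exception is the first array at 2 h after IFNα, whose title carries a peritoneal code.

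By their own markers the arrays matched their labelled cell types, with macrophage genes also seen on T cell arrays. All 10 peritoneal macrophage markers lay above the array median on every macrophage array, and all 7 CD4 T cell markers with a probe set did so on every T cell array. The mean log2 level of the T cell markers was 11.88 to 12.19 on T cell arrays against 6.56 to 6.92 on macrophage arrays. Defining genes of macrophages were seen on T cell arrays too: Lyz2, the lysozyme of myeloid cells, stood at 12.20 and 10.02 on the 2 h arrays and between 7.34 and 7.67 on the other 4. On T cell 2 h array 1, 7 of 10 macrophage markers lay above the median, with a mean level of 8.43. On the other T cell arrays 2 or 3 did, with a mean level of 7.16 to 7.58. All 7 CD4 T cell markers were lower on 2 h array 1 than on 2 h array 2. Arrays within a group correlated at Pearson r of 0.984 to 0.997. Ifnar1 itself read 10.26, 10.09, 9.93 and 10.31 (log2) on the knockout arrays and 10.09 to 10.46 on B10.Q/J macrophage arrays. The position of its probe set relative to the disrupted part is not given in the sources used here, so this level does not check the genotype.

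Levels are the log2 of the deposited intensity. Probe sets of different genes bind with different strength, so a level is compared only between arrays and never between genes. Genes entered the test if 2 or more arrays in the fit exceeded their own median, and calls were made where the adjusted p was under 0.05 (limma, Benjamini-Hochberg over all genes of the fit, two-sided). Errors of a difference are standard errors (SE), and n is 2 arrays a group throughout. In sorted bulk samples, fewer cells of a type and less RNA per cell cannot be told apart.

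The sequence table held promoter windows of Il15ra but none of Il15 or Il2rb. Il15ra has 2 annotated starts, on the plus strand of chromosome 2 in GRCm38.p6, and a RefSeq window of 300 bases covers each, mostly upstream. They are shown because the interferon-stimulated response element and the gamma-activated site are the sequences through which interferons are known to act. Capitals mark the only matches found, to AANNGAAA, an 8-base interferon regulatory factor site that was added to the search after the windows had been read.
Il15ra, chr2:11705043-11705342: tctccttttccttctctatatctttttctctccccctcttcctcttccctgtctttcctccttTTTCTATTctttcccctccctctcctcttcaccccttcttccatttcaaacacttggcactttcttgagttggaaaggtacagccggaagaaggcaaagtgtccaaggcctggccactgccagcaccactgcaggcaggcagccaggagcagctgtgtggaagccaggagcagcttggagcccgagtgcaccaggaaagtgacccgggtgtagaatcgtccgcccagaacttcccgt
Il15ra, chr2:11705462-11705761: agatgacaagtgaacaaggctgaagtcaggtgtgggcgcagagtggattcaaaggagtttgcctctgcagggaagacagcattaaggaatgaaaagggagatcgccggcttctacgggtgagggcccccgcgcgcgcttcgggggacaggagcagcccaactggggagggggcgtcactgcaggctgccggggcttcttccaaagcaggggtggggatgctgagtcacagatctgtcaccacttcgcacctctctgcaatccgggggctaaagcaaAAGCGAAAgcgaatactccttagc

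Neither window held the response element core GAAANNGAAA or the gamma-activated site TTCNNNGAA on either strand. Of all 32851 promoter windows of this length, 3.44% held the core and 8.30% held the gamma-activated site. The 8-base site, which lies within the core, matched once in each Il15ra window. In the first window it was on the minus strand at bases 64 to 71, where the plus strand reads TTTCTATT, and in the second on the plus strand at bases 277 to 284 (AAGCGAAA). The site is common, since 23.92% of all windows held it.

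Il15, the ligand, rose in B10.Q/J macrophages 2 h after IFNα. Its log2 level was 8.77 and 8.48 after vehicle, 10.43 and 9.65 at 2 h, and 9.77 and 9.72 at 5 h. All 4 treated arrays lay above both vehicle arrays, and among treated arrays the first at 2 h stood apart as the highest. At 2 h the difference was 1.41 ± 0.24 (SE), 2.66-fold, with a 95% interval from 0.87 to 1.95 and an adjusted p of 0.0251 in limma. At 5 h it was 1.11 ± 0.24, 2.17-fold, with an interval from 0.57 to 1.66, and was not called (limma adjusted p = 0.100). With only the vehicle and 5 h arrays in the fit, the same difference had an adjusted p of 0.00146 in limma.

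The call at 2 h rested on each of 3 arrays. Without 2 h array 1 the difference was 1.02 (limma adjusted p = 0.223). Against the vehicle array taken at 2 h alone it was 1.26 (0.298), and against the vehicle array taken at 5 h alone 1.56 (0.113). Without 2 h array 2 it was 1.80, with an adjusted p of 0.00525 in limma. At 5 h, the difference from the vehicle array taken at the same time was 1.26 and was not called (limma adjusted p = 0.266).

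The 5 h and 2 h macrophage arrays overlapped. Il15 differed by -0.30 ± 0.24 between them (5 h minus 2 h, 95% interval from -0.84 to 0.25, limma adjusted p = 0.910). This difference became 0.096 without 2 h array 1. Over all genes tested, 84 of 10531 (0.798%) were called at 2 h, 88 (0.836%) at 5 h and 1 (0.0095%) between the times. By p, Il15 ranked 73 at 2 h and 106 at 5 h.

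**Figure D1:**
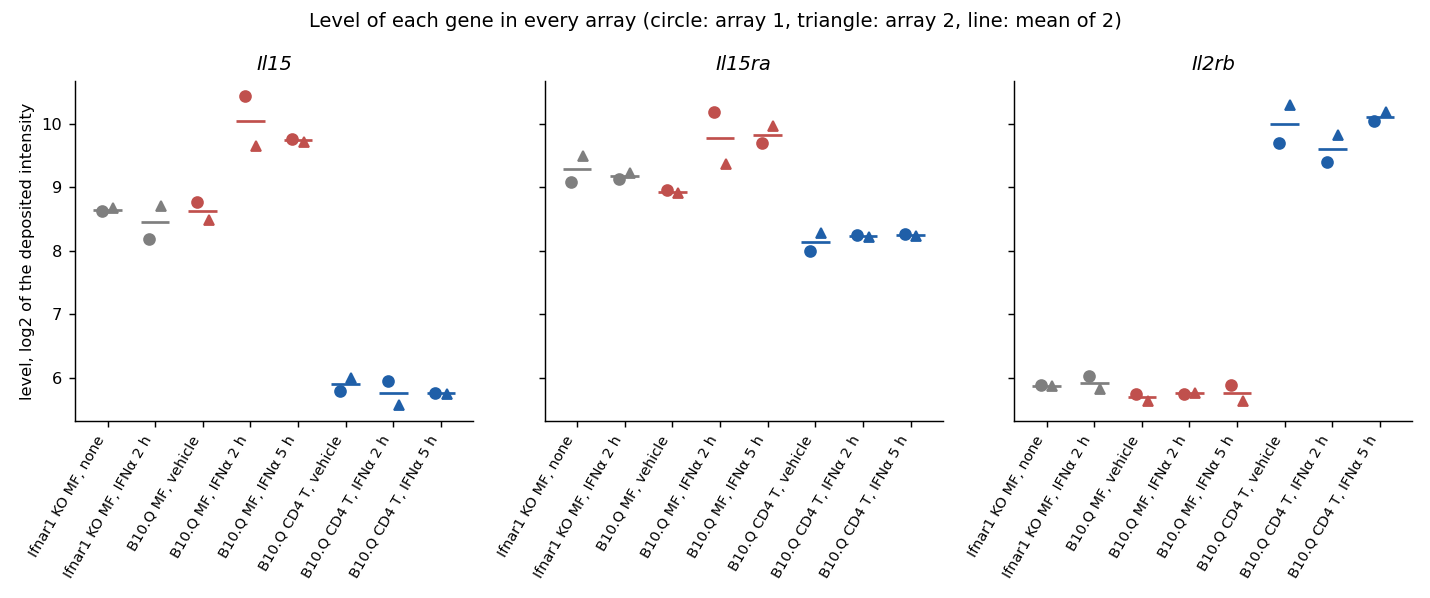
Log2 intensity of Il15, Il15ra and Il2rb on every array, in the 8 groups, with circles for array 1, triangles for array 2 and a line at the mean of 2. Il15 reaches 9.65 to 10.43 on the B10.Q/J macrophage arrays after IFNα against 5.57 to 6.00 on T cell arrays, while Il2rb reads 9.40 to 10.30 on T cell arrays and 5.63 to 6.02 on macrophage arrays.

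Il15ra, the chain that binds IL-15 on the presenting cell, was higher on all 4 treated B10.Q/J macrophage arrays than after vehicle, but no difference was called. Its log2 level was 8.96 and 8.91 after vehicle, 10.19 and 9.36 at 2 h, and 9.69 and 9.96 at 5 h. Vehicle arrays lay within 0.05 of each other, and the 2 h arrays were 0.82 apart. At 2 h the difference was 0.84 ± 0.24, 1.79-fold, with an interval from 0.31 to 1.37 (limma adjusted p = 0.351). At 5 h it was 0.89 ± 0.24, 1.86-fold (limma adjusted p = 0.260), and 5 h minus 2 h was 0.05 ± 0.24 (0.981).

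The Il15ra result also turned on single arrays. Without 2 h array 2 the difference at 2 h was 1.26 and was called (limma adjusted p = 0.0211). Without 2 h array 1 it was 0.43. With only the vehicle and 5 h arrays in the fit, the difference at 5 h had an adjusted p of 0.00425 in limma.

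The ligand and its presenting chain shared the uneven 2 h pair. Array 1 exceeded array 2 by 0.78 for Il15 and 0.82 for Il15ra. All 8 interferon response reference genes (Mx1, Ifit1, Rsad2, Usp18, Rtp4, Irf7, Oasl2 and Stat2) were also higher on array 1, by a median of 1.05. Of 10 macrophage markers, 4 were higher on array 1, with a median gap of -0.02. At 5 h 1 of 8 reference genes was higher on array 1, with a median gap of -0.25. Array 1 minus array 2 was then 0.05 for Il15 and -0.27 for Il15ra. The title of 2 h array 1 carries a peritoneal code and that of 2 h array 2 a spleen code. What set the 2 h arrays apart was not tested.

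**Figure D2:**
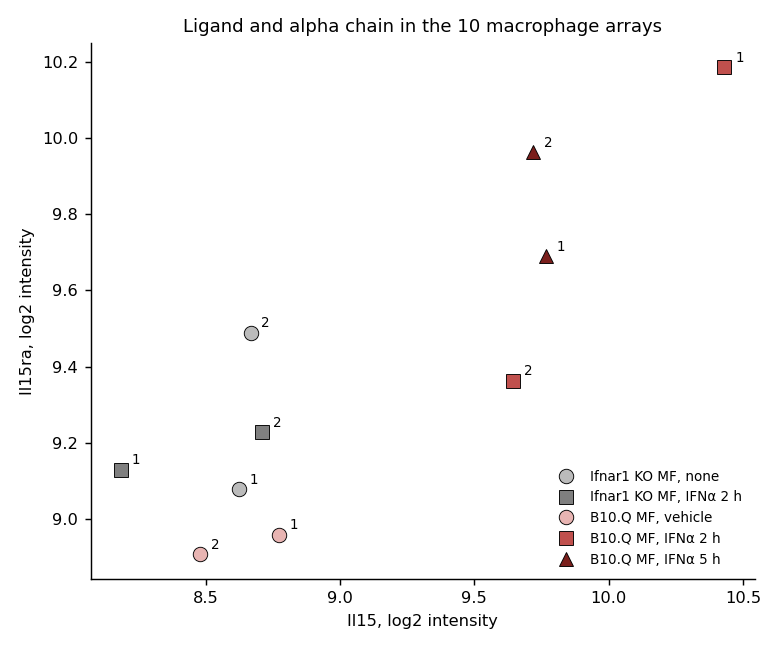
Log2 intensity of Il15 (x axis) and Il15ra (y axis) on each of the 10 macrophage arrays, with symbols for the 5 groups and the array number beside each point. The 4 B10.Q/J arrays after IFNα lie at Il15 levels of 9.65 or more, and B10.Q/J 2 h array 1 is highest for both genes, at 10.43 and 10.19.

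In Ifnar1 knockout macrophages neither gene was called. Il15 read 8.62 and 8.67 (log2) in the pair titled without IFNα and 8.18 and 8.71 in the IFNα pair. The groups overlapped, and the lowest value came from IFNα array 1. The difference was -0.20 ± 0.24 with an interval from -0.74 to 0.34, and it was 0.063 without that array. Il15ra read 9.08 and 9.49 without IFNα and 9.13 and 9.23 with it, again overlapping, a difference of -0.11 ± 0.24 with an interval from -0.64 to 0.43. Both had an adjusted p of 0.9996 in limma. No gene of 10531 was called in this comparison (0%), and 460 had an unadjusted p under 0.05 in limma. 

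Array 1 of both knockout pairs stood apart in markers of other cells. On IFNα array 1 the macrophage markers averaged 11.58 (log2), the lowest of the 10 macrophage arrays, and all 10 were lower than on IFNα array 2. Its B cell markers were higher than on array 2 in 5 of 5, by a median of 0.95, and neutrophil markers in 5 of 6. On every macrophage array only 1 of 6 neutrophil markers, Csf3r, lay above the median, and on IFNα array 1 it was the lower one (-0.28). NK markers (8 of 8) and mast cell and eosinophil markers (6 of 6) were higher on that array too, with 0 above the median. Counts of such low values are therefore not read as other cells. Array 1 of the pair titled without IFNα shared part of this: B cell markers were higher than on its array 2 in 3 of 5, by a median of 0.85, and neutrophil markers in 6 of 6, by a median of 0.39. B cell markers averaged 8.23 and 7.99 on these first arrays and 7.18 to 7.37 on the other 8 macrophage arrays. The part of these cells in the Il15 and Il15ra levels was not tested.

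The response at 2 h was compared between the lines by the difference of differences. For Il15 it was 1.61 ± 0.34 larger in B10.Q/J than in knockout macrophages, with an interval from 0.84 to 2.38, and was not called (limma adjusted p = 0.116). Without B10.Q/J 2 h array 2 it was 2.00 and without knockout IFNα array 2 it was 1.87, and both were called by limma (adjusted p of 0.0151 and 0.00838). With all 16 arrays in the fit, the value 1.61 was called as well (limma adjusted p = 0.0335). For Il15ra the difference of responses was 0.95 ± 0.34 (limma adjusted p = 0.606). Of 10531 genes, 43 (0.408%) were called.

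Neither gene was called between the B10.Q/J vehicle pair and the knockout pair titled without IFNα. Vehicle minus that pair was -0.02 ± 0.24 for Il15, with an interval from -0.56 to 0.52. For Il15ra it was -0.35 ± 0.24 (limma adjusted p = 0.578), with both vehicle arrays below all 4 knockout arrays. The comparison called 57 genes (0.541%), of which 29 were higher and 28 lower in B10.Q/J.

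**Figure D3:**
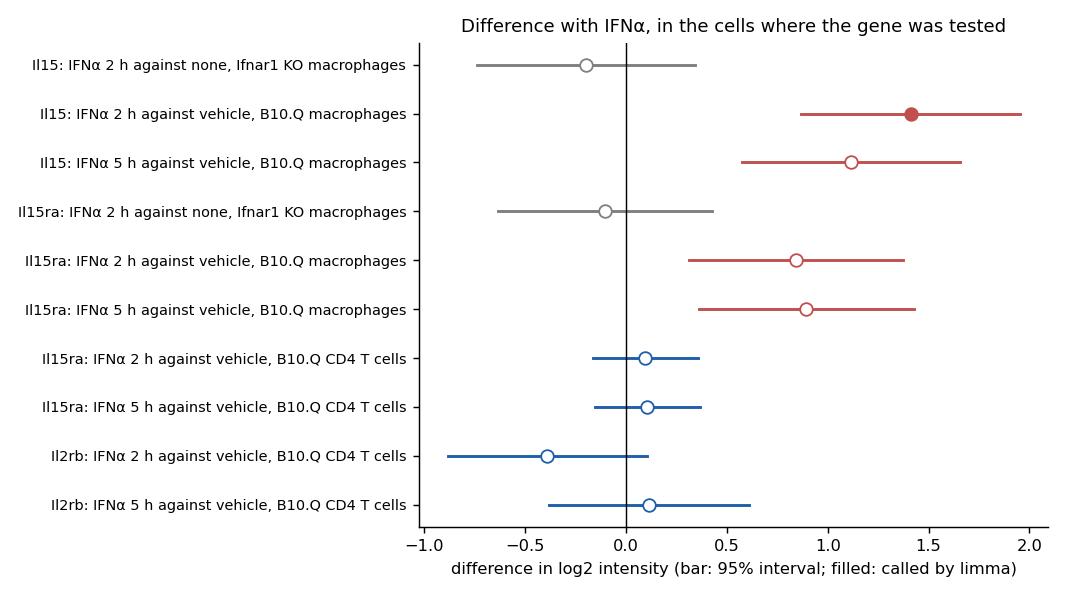
Difference in log2 intensity between IFNα arrays and those after vehicle or, for the knockout, titled without IFNα (x axis) for Il15, Il15ra and Il2rb in each cell type where the gene was tested, with 95% intervals and filled circles for calls by limma. The filled circle is Il15 in B10.Q/J macrophages at 2 h, at 1.41, and the Il15ra intervals in macrophages, such as 0.31 to 1.37 at 2 h, lie above 0 without passing the adjusted threshold.

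Il2rb, the signalling beta chain, was a gene of the T cell arrays. Its log2 level was 9.70 and 10.30 after vehicle, 9.40 and 9.82 at 2 h, and 10.04 and 10.18 at 5 h, which placed it between the 79.3 and 89.0 percentile of an array. Vehicle arrays overlapped with those at 2 h and with those at 5 h, and both 5 h arrays lay above both 2 h arrays. At 2 h the difference from vehicle was -0.39 ± 0.21 with an interval from -0.89 to 0.11 (limma adjusted p = 0.764). At 5 h it was 0.11 ± 0.21 with an interval from -0.38 to 0.61 (0.9998).

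The vehicle pair was far apart for this gene. Array 2 exceeded array 1 by 0.61 after vehicle, by 0.42 at 2 h and by 0.15 at 5 h. Against the vehicle array taken at the same time, the difference was -0.09 at 2 h and -0.19 at 5 h, so the sign at 5 h turned. Between the times, 5 h minus 2 h was 0.50 ± 0.21 (limma adjusted p = 0.503), and without 2 h array 2 it was 0.71. That value rests on 2 h array 1, where Il2rb was lowest (9.40, log2). Compared with 2 h array 2, that array was higher in 10 of 10 macrophage markers, by a median of 0.64. It was higher in 0 of 7 CD4 T cell markers (median gap -0.19). The part of this in the Il2rb values was not tested. No count of called genes was large in T cells: 29 of 10112 (0.287%) at 2 h, 2 (0.0198%) at 5 h and 1 (0.00989%) between the times.

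Cells other than conventional CD4 T cells also carry the beta chain, so their markers are given beside it. The NK receptor genes Ncr1 (4.89 to 5.23, log2) and Klrb1c (5.48 to 6.13) lay below the lower quartile on all 6 T cell arrays, and 2 of 8 NK markers, Klrd1 and Prf1, lay above the median. The mean level of the 8 NK markers was 6.07 to 6.25 on T cell arrays and 5.14 to 5.41 on macrophage arrays. Markers of regulatory and memory T cells lay above the median in 7 of 7 on every T cell array, with a mean level of 9.67 to 10.03, and among them Il2ra, the IL-2 receptor alpha chain, read 10.25 to 10.70. Of the CD8 T cell genes, Cd8a (6.98 to 7.22) lay below the array median on all 6 T cell arrays and Cd8b1 (8.52 to 9.01) above it. The part of these cells in the Il2rb level was not tested.

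Il15ra in T cells did not differ with IFNα beyond its spread. It read 7.998 and 8.285 (log2) after vehicle, 8.25 and 8.22 at 2 h, and 8.26 and 8.24 at 5 h, above the array median each time. The difference was 0.10 ± 0.11 at 2 h with an interval from -0.17 to 0.36 (limma adjusted p = 0.824), and 0.10 ± 0.11 at 5 h (0.9998). The part of macrophage RNA in these levels was not tested. Il15 lay below the lower quartile on all 6 T cell arrays, at 5.57 to 6.00 (log2), the 13.2 to 18.8 percentile, and was not tested there.

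After vehicle, Il15 read higher in macrophages and Il2rb in T cells. The log2 intensity of Il15 was 2.73 ± 0.21 higher in macrophages, where it passed the filter, than in T cells, where it lay below the lower quartile on every array. Il2rb was 4.31 ± 0.18 lower in macrophages, where it lay below the lower quartile on all 10 arrays, at 5.63 to 6.02. Neither low value is known to exceed background and each gene was tested only through the cells where it is high, so these are differences of intensity, given without a fold or a test. Il15ra, above the array median in both cell types, was 0.79 ± 0.20 higher in macrophages (1.73-fold, adjusted p = 0.00476 in limma), and 0.65 without T cell vehicle array 1, where the call was just missed at an adjusted p of 0.05003 in limma. A call is common in this comparison, which called 6936 of 11161 genes (62.1%), and tissue of origin changes with cell type.

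For none of the 3 genes was a difference in response between the cell types called. For Il15 the response at 2 h was 1.55 ± 0.30 larger in macrophages (limma adjusted p = 0.196, rank 12 by p) and at 5 h 1.25 ± 0.30 larger (0.200). At 2 h it passed without macrophage array 2 (1.94, adjusted p = 0.00419 in limma) or without T cell array 2 (1.36, 0.0265). For Il15ra the differences were 0.75 ± 0.29 at 2 h and 0.79 ± 0.29 at 5 h (limma adjusted p of 0.665 and 0.755). For Il2rb they were 0.46 ± 0.26 and -0.04 ± 0.26. The Il15 values on the T cell side and the Il2rb values on the macrophage side all lay below the lower quartile, so a response there could not be read and these differences, also those that passed without an array, are descriptions of intensity. Of 11161 genes, 3 (0.0269%) were called at 2 h and 28 (0.251%) at 5 h.

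By order of mean level, Il15 placed B10.Q/J macrophages at 2 h (10.04 ± 0.56, SD) and 5 h (9.74 ± 0.03) first, and these overlapped. Below a gap came knockout titled without IFNα (8.65 ± 0.03), vehicle (8.63 ± 0.21) and knockout with IFNα (8.45 ± 0.37) macrophages, which overlapped each other, and below a further gap the T cell groups at 5.76 to 5.90. For Il15ra, neighbours overlapped from B10.Q/J macrophages at 5 h (9.83 ± 0.19) and 2 h (9.78 ± 0.58) through knockout titled without (9.28 ± 0.29) and with IFNα (9.18 ± 0.07). Vehicle macrophages (8.93 ± 0.04) and then T cells (8.14 to 8.25) followed, each below a gap. For Il2rb the T cell groups came first, at 9.61 to 10.11, with no overlap with any macrophage group.

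The family was listed as 6 cytokines that signal through the common gamma chain, with Tslp, which uses Il7r and Crlf2 without that chain, beside them. Il15 passed the filter in macrophages, while Il2, Il4, Il7, Il9, Il21 and Tslp did not pass the filter in either cell type, and Il7, the other survival cytokine of T cells, lay below the lower quartile on all 16 arrays. Of the 7 cytokines listed, 1 was tested in macrophages and 0 in T cells. After vehicle 6 of 8 receptor chains tested were lower in macrophages, against 34.1% of all genes lower: Il7r (-7.17 ± 0.11), Il2ra (-4.93 ± 0.15), Il2rb, Il21r (-3.55 ± 0.09), Il4ra (-1.18 ± 0.11) and Il9r (-0.34 ± 0.11). Il15ra and Crlf2, the receptor chain for TSLP (0.86 ± 0.15), were higher. Il7r, Il2ra, Il2rb and Il21r passed the filter only through the T cell arrays, where they are high, so nothing is read from the count.

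No receptor chain was called after IFNα in either cell type (limma). In macrophages 1 of 4 chains tested, Il15ra, had an unadjusted p under 0.05 in limma at 2 h and at 5 h. Over all 10531 genes tested there, 476 and 414 passed that level. In T cells 0 of 8 passed that level at 2 h and 1 of 8 at 5 h, Il21r, the IL-21 receptor, at 0.25 ± 0.09. Over all 10112 genes tested in T cells, 614 and 387 passed it, so nothing is read from the counts of chains.

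**Figure D4:**
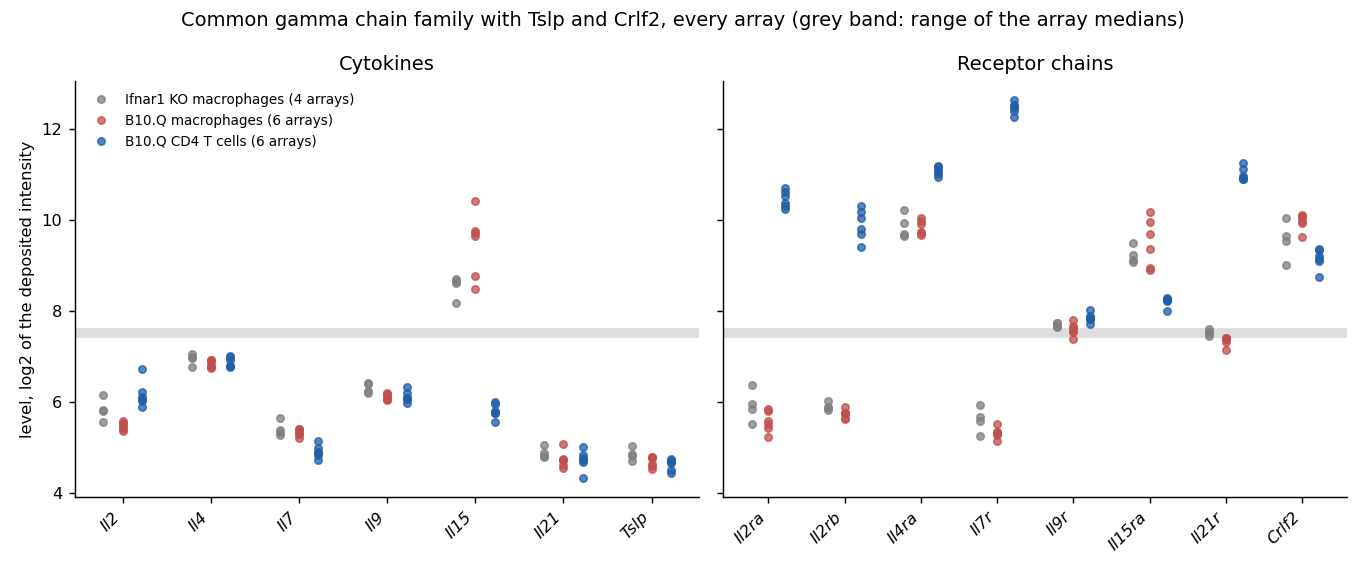
Log2 intensity of 6 common gamma chain cytokines and Tslp (left) and of 8 receptor chains, with Crlf2 of the TSLP receptor among them (right), on every array, in grey for Ifnar1 knockout macrophages, red for B10.Q/J macrophages and blue for T cells, with a grey band over the array medians. Il15 is the cytokine above the band, on macrophage arrays (8.18 to 10.43), while Il7r reads 12.26 to 12.65 on T cell arrays against 5.13 to 5.94 on macrophage arrays and Il2ra 10.25 to 10.70 against 5.22 to 6.38.

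Values are given for 7 transcription factors listed as acting on Il15 and Il15ra. In B10.Q/J macrophages Stat2 and Irf9, which take part in the factor that binds interferon-stimulated response elements, rose at 2 h (2.07 ± 0.26 and 1.62 ± 0.20) and at 5 h (1.87 ± 0.26 and 1.54 ± 0.20), with limma adjusted p of 0.0086 or less. Irf1, a known activator of Il15, read 9.03 and 9.09 (log2) after vehicle, 10.72 and 10.22 at 2 h, and 9.64 and 9.94 at 5 h. Its difference of 1.41 ± 0.30 at 2 h was not called (limma adjusted p = 0.0964). The other 4 (Irf2, Irf8, Rela and Nlrc5) were within 0.27 of vehicle at 2 h, and the median of the 7 was 0.15 against -0.06 over all genes tested.

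In T cells 1 of these 7 rose at 2 h, Irf9 by 1.20 ± 0.09 (limma adjusted p = 0.0063), where 0.287% of all genes tested were called. None was called at 5 h, where 0.0198% of all genes were. At 5 h 1 of the 7 had an unadjusted p under 0.05 in limma, and 387 of all 10112 genes did. In knockout macrophages limma called none of the 7 and 0% of all 10531 genes tested. Nothing is therefore read from the counts of 0 there or in T cells at 5 h. An unadjusted p under 0.05 in limma was found in the knockout for 460 of all genes and for 2 of these 7. Those were Irf1 (-0.75 ± 0.30) and Irf9 (-0.67 ± 0.20), both highest on array 2 of the pair titled without IFNα, at 10.61 and 10.27 (log2).

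Values of the interferon response reference genes are given for the same arrays. They were listed with earlier results of these data known, so their counts are a description. Over all genes tested, limma called 0.798% and 0.836% in B10.Q/J macrophages at 2 h and 5 h. It called 0.287% and 0.0198% in T cells, and 0% in the knockout. In B10.Q/J macrophages 8 of 8 were called higher at 2 h and at 5 h, led at 2 h by Mx1, an antiviral GTPase (5.22 ± 0.26), and Ifit1, which binds viral RNA (4.86 ± 0.42). Mx1, Ifit1, Rsad2, Usp18 and Rtp4 lay above the median on 4 of 10 macrophage arrays. They passed the filter only through the B10.Q/J arrays after IFNα, where they are high. Mx1 and Ifit1 lay below the lower quartile on 5 of 10. Nothing is therefore read from the count, and the values of these genes are differences of intensity only. In T cells 5 of 7 tested rose at 2 h and 1 of 7, Rtp4 (2.14 ± 0.15), at 5 h. In knockout macrophages 0 of 8 were called, and 1, Rtp4 at -0.58 ± 0.25, had an unadjusted p under 0.05 in limma. The 2 h T cell arrays, like those of macrophages, differed in all 8, which were higher on array 1 by a median of 0.81. Array 1 was also higher in 10 of 10 macrophage markers, by a median of 0.64, and the part of that in the T cell values was not tested.

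Genes for signalling below the receptor were set beside the comparisons that called 0.798% and 0.836% of all genes in macrophages and 0.287% and 0.0198% in T cells, at 2 h and 5 h. Counts of 0 are near that share, so nothing is read from them for this list or for those of targets, receptor chains and shedding genes. Of 15 genes listed, 13 had a probe set, and Jak3 and Lck were not analysed here. In macrophages 0 of 13 were called at 2 h or 5 h, and 0 of 13 had an unadjusted p under 0.05 at either time in limma. In T cells 0 of 11 were called at 2 h or 5 h, and 0 and 1 had an unadjusted p under 0.05, the last being Stat3 (0.40 ± 0.15 at 5 h). The STAT5 genes of T cells read -0.02 ± 0.11 (Stat5a) and -0.01 ± 0.09 (Stat5b) at 2 h, and 0.17 ± 0.11 and 0.08 ± 0.09 at 5 h. After vehicle 7 of 13 were lower in macrophages, against 34.1% of all genes, among them Pik3cd, the leukocyte PI3 kinase catalytic subunit (-1.44 ± 0.10), and Jak1 (-1.17 ± 0.09). Syk (4.05 ± 0.15), Gab2 (2.93 ± 0.12), Akt1 (1.19 ± 0.12) and Shc1 (0.40 ± 0.14) were higher. Syk and Gab2 passed the filter only through the macrophage arrays, where they are high, so their values are differences of intensity only.

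Genes listed as targets of STAT5 and IL-15 were examined in the T cells, and whether IL-15 acted on them was not tested. In T cells 0 of 15 tested were called by limma at 2 h and 0 of 15 at 5 h, and 1 and 3 had an unadjusted p under 0.05. Over all 10112 genes tested in T cells, 614 had an unadjusted p under 0.05 in limma at 2 h and 387 at 5 h. At 5 h these were Socs3, a cytokine signalling inhibitor (0.92 ± 0.23), and the survival kinases Pim2 (0.49 ± 0.10) and Pim1 (0.48 ± 0.12), with limma adjusted p from 0.65 to 0.93. Pim2 read 9.85 and 9.84 (log2) after vehicle, 9.79 and 10.03 at 2 h, and 10.36 and 10.32 at 5 h. Socs3 read 9.37 and 9.63 after vehicle, 10.45 and 9.68 at 2 h, and 10.52 and 10.33 at 5 h.

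Other targets lay closer to vehicle. Bcl2, which blocks cell death, was at 0.21 ± 0.12 at 2 h and 0.05 ± 0.12 at 5 h. Cish, an inhibitor induced by STAT5, was at -0.12 ± 0.13 and 0.15 ± 0.13. The median over the 15 was -0.05 at 2 h and 0.04 at 5 h, against -0.03 and 0.00 over all genes tested. Gzmb and Ifng, effector genes of NK and memory T cells, and Socs2 did not pass the filter in T cells. In macrophages 0 of 11 targets were called by limma at either time. At 2 h, 3 had an unadjusted p under 0.05, of which 2 were higher, among them Pim1 (0.77 ± 0.22), and 1 was lower. Over all 10531 genes tested, 476 passed that level at 2 h.

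**Figure D5:**
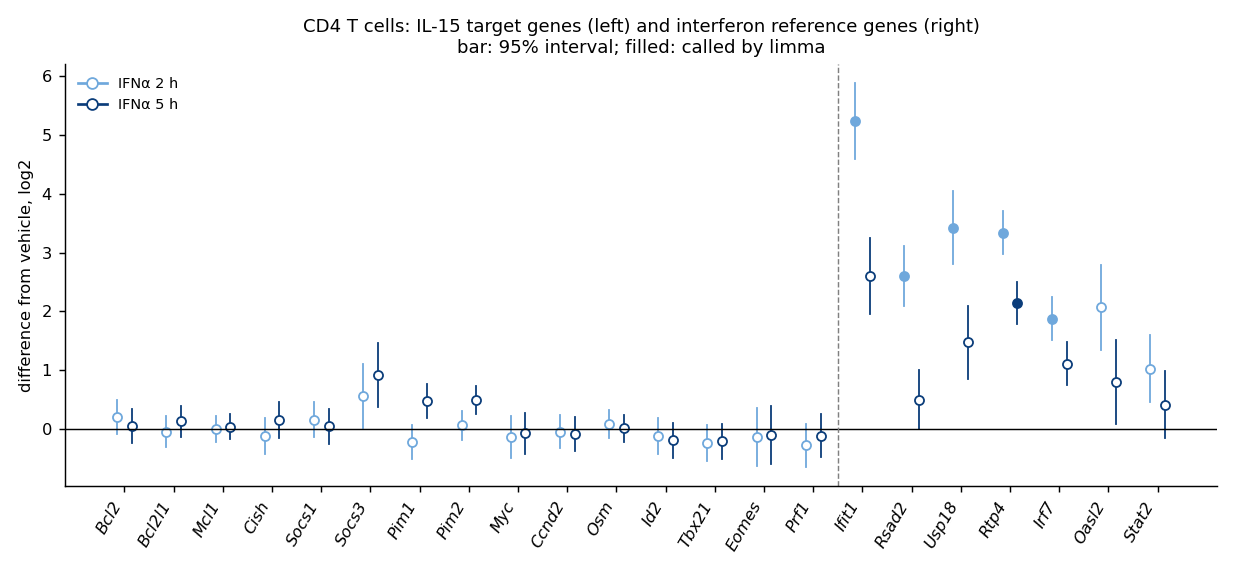
Difference from vehicle (log2, y axis) in B10.Q/J CD4 T cells for 15 STAT5 and IL-15 target genes, left of the dashed line, and 7 interferon response reference genes, right of it, in light blue at 2 h and dark blue at 5 h, with 95% intervals and filled circles for calls by limma. The target genes stay below 1 at both times, the highest being Socs3 at 0.92, while Ifit1 reaches 5.24 at 2 h.

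Genes that shed or carry IL-15 and its alpha chain were compared between the cell types. After vehicle 4 of 4 were higher in macrophages, where 28.1% of all genes tested were: Rab11a, of recycling endosomes (1.49 ± 0.09), the proteases Adam10 (0.81 ± 0.10) and Adam17 (0.77 ± 0.14), and Furin (0.75 ± 0.10). After IFNα 0 of 4 were called in macrophages or in T cells at either time, and 0 of 4 had an unadjusted p under 0.05 in limma. Their differences from vehicle in macrophages ran from -0.19 to 0.19.

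The genes whose pattern was most like each member were ranked by Pearson r over arrays, as a description. Over the 10 macrophage arrays and 10531 genes, Il15 was followed most closely by Vcpip1 (r = 0.989), B3gnt2 (0.988), Zup1 (0.987), Setdb2 (0.986) and Zc3hav1 (0.986). Stat2 ranked 11 (0.978), Mx1 43 (0.960) and Il15ra 168 (0.864). For Il15ra the closest were Marchf5 (0.976), Parp11 (0.974), Tpst1 (0.973), Nampt (0.964) and Iigp1 (0.957). These arrays share their groups and the uneven 2 h pair, so the points are not independent.

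Over the 6 T cell arrays and 10112 genes, Il2rb was followed by Dip2c (r = 0.996), Rab11fip2 (0.990), Zadh2 (0.986), Cdkn2c (0.985) and Raph1 (0.985). Cxcr3, a chemokine receptor of effector and memory T cells, ranked 11 (0.978) and Il2ra 840 (0.773). Like Il2rb, Cxcr3 was higher on array 2 in every T cell group, at 8.55 and 9.11 (log2) after vehicle, 8.26 and 8.76 at 2 h, and 8.77 and 8.95 at 5 h. The interferon-related Irf1 (-0.77) and Stat2 (-0.70) ran the other way. The points are 6 arrays in 3 groups and are not independent.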

How the data were processed

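RNA of sorted cells was amplified with the Ambion WT Expression Kit and hybridised to 16 arrays. Per the submitters' processing notes, which state no versions, the authors used Affymetrix Power Tools and RMA. The deposited values are intensities per probe set on a linear scale (7.1 to 21209.81, array medians 173.57 to 193.7). Whether all arrays were normalised together, and the genome build, are not given in the sources used here. RMA usually includes a quantile step, which hides a shift shared by all genes, although array medians still differed here. Precision is limited by the number of arrays.

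Each value was taken to log2 with no further scaling. Of 24922 probe sets, 21425 carried 1 gene symbol in GEO's platform annotation, 1399 several and 2098 none, and 21347 matched RefSeq by gene identifier. A gene with several probe sets (921 of 19752) was represented by the one with the highest mean over the 16 arrays. The lmFit and eBayes functions of limma 3.58.1 (R 4.3.3) were run on 3 sets: 10 macrophage arrays, 6 T cell arrays, and 12 B10.Q/J arrays for differences between cell types. The fit was tested on simulated data.

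Members and gene lists were chosen with earlier results of these data known. Of each list, up to 4 genes per comparison were named, called genes with the largest change first and then those with the smallest p, and the 5 genes closest to each member. Genes named beyond that were chosen after their values were seen. Alternatives were the filter, the scaling, the variance model, all probe sets, the arrays in the fit, the replicate number as a block, and leaving out each array in turn.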

Additional observations from a re-analysis of the deposited data

Results flagged for a closer look

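At 5 h after IFNα, the Il15 arrays lay on opposite sides of vehicle in the cell types. Both macrophage arrays (9.77 and 9.72, log2) lay above both vehicle arrays (8.77 and 8.48), and both T cell arrays (5.76 and 5.75) lay below both T cell vehicle arrays (5.80 and 6.00). The T cell values are all below the lower quartile of their arrays. The difference of the responses was 1.25 ± 0.30 and was not called (limma adjusted p = 0.200). Because a response of T cells could not be read at these values, it is a description of intensity only.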

How the results depend on the processing

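Of 240 values of the 3 genes under other settings, 231 kept their direction and their side of the threshold, 6 passed it and 3 turned. Of 140 values with 1 array left out, 113 kept both, 4 lost the call, 7 passed and 16 turned. Il15 in macrophages at 2 h was called under every setting other than a left-out array, at 1.40 to 1.42, and ran from 1.02 to 1.80 with an array left out. With only the groups compared in the fit, Il15 at 5 h (1.11), Il15ra at 5 h (0.89) and the 5 h responses between cell types (1.25 for Il15 and 0.79 for Il15ra) passed. The Il15 value between cell types remains a description of intensity, since Il15 lay below the lower quartile on every T cell array. With all 16 arrays, Il15 at 5 h (1.11) and its response between lines (1.61) passed. Il15 between the lines without IFNα turned to 0.036 with array medians subtracted, and Il15ra between 5 h and 2 h to -0.020 in T cells and -0.0049 in macrophages with quantile normalization.

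Leaving out 1 array gave these ranges. For Il15 they were -0.46 to 0.063 in the knockout, -0.69 to 0.096 between 5 h and 2 h, 1.22 to 2.00 for the response between lines, -0.17 to 0.13 between the lines without IFNα, and 1.16 to 1.94 for the 2 h response between cell types. For Il15ra they were 0.43 to 1.26 at 2 h in macrophages, -0.36 to 0.46 between 5 h and 2 h, -0.31 to 0.10 in the knockout, -0.048 to 0.24 and -0.039 to 0.25 at 2 h and 5 h in T cells, -0.0060 to 0.024 between these, 0.65 to 0.93 between cell types after vehicle, and 0.34 to 1.16 for their 2 h response. For Il2rb they were -0.19 to 0.42 at 5 h, 0.29 to 0.71 between 5 h and 2 h, and -0.35 to 0.26 for the 5 h response between cell types. The lone array of a group is then assumed to vary like the other groups.

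Counts of called genes moved by over 1.5 times in every comparison but that of the cell types after vehicle. In B10.Q/J macrophages at 2 h 84 genes became 36 without either vehicle array and 42 without 2 h array 1. At 5 h 88 became 203 with only the groups compared and 29 to 38 without any 1 array, and between the times 1 became 40 with only the groups compared. In the knockout 0 became 11 with all 16 arrays, 1191 without IFNα array 2 and 37 without IFNα array 1. For the response between lines 43 became 72 with all 16 arrays and 8 to 491 without 1 array (491 without knockout IFNα array 2). Between the lines without IFNα 57 became 21 to 33 without 1 array and 198 with only the groups compared. In T cells at 2 h 29 became 0 without vehicle array 1, 2 without vehicle array 2, 71 without 2 h array 1 and 1817 without 2 h array 2. At 5 h 2 became 0 without any 1 array and 63 with only the groups compared, and between the times 1 became 1641 without 2 h array 2. For the responses between cell types, 3 became 1 to 511 at 2 h (511 without T cell 2 h array 2), and 28 became 6 to 11 without 1 array and 140 with only the groups compared at 5 h. The cause was not tested.

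Same-numbered arrays deviated together in some pairs of groups and not in others: the correlation of their deviations was over 0.1 in 8 of 22 pairs, and ran from -0.29 to 0.46 between macrophage groups, -0.065 to 0.18 between T cell groups and -0.19 to 0.16 across cell types. With the replicate number as a block, Il15 in macrophages at 2 h was 1.41 ± 0.25 (limma adjusted p = 0.0426), and no call of the 3 genes changed, the responses between cell types included.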
